A study of Homo sapiens with 9 samples.

Results

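The short arm of chromosome 3 (3p) was examined in 5 lists of binding sites (peaks) from chromatin immunoprecipitation followed by sequencing (ChIP-seq) in 2 cell lines of clear cell renal cell carcinoma, 786-O and A498. A peak belonged to 3p when it lay on chromosome 3 of the hg19 build and ended below 90.5 Mb, and 1079 of the 52875 peaks of the series did so. They comprised 443 of 20034 GFP peaks from 786-O cells with an eGFP knock-in at ZNF395, 53 of 3361 GFP peaks from parental 786-O cells, 76 of 7718 GFP peaks from A498 cells with the same knock-in, 13 of 1563 from parental A498 cells and 494 of 20199 MYC peaks from parental 786-O cells. The long arm (3q), taken as peaks starting above 93.5 Mb, held 1566 peaks and served for comparison. No peak of any list lay between both bounds.

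Tagged cells had been electroporated with a donor plasmid and a plasmid for a guide RNA so that a tag with eGFP was inserted behind ZNF395. Parental cells lack the tag, and their GFP peaks show what the antibody (ab290) recovers without it. No source used here says whether the tagged cells were 1 clone or a pool. The libraries titled A498 carry 786-O in their cell line field, and the library titled MYC, made with a c-Myc antibody, names P300 as its target, so A498 and MYC below mean the libraries so titled. Each group is 1 library. No difference has a replicate check, no p-value is given, and every interval is a 95% interval that covers counting error only and treats peaks as independent.

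Loss of 3p is the characteristic chromosome change of clear cell renal cell carcinoma. The arm carries VHL, whose protein marks the hypoxia-inducible factors for degradation, and the chromatin regulators PBRM1, SETD2 and BAP1, all recurrently inactivated in this tumour. ZNF395 is a zinc finger transcription factor, and MYC is a transcription factor of growth, ribosome and metabolic genes. The lists give positions and scores but no read counts, and the copy number of 3p in these cells was not measured here.

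ZNF395-eGFP peaks were sparse on 3p in A498 and much less so in 786-O. Tagged 786-O cells had 4.90 peaks per Mb on 3p (4.45 to 5.37) and 5.96 per Mb on 3q (5.50 to 6.44). Tagged A498 cells had 0.840 per Mb on 3p (0.662 to 1.05) and 1.63 per Mb on 3q (1.39 to 1.89). The density on 3p was thus 0.822 times that on 3q in tagged 786-O (0.726 to 0.930) and 0.516 times in tagged A498 (0.388 to 0.680). MYC peaks differed least between the arms, with 5.46 per Mb on 3p and 5.91 on 3q, a ratio of 0.924 (0.819 to 1.04) whose interval includes 1. Parental GFP peaks were also fewer on 3p: 0.586 per Mb against 1.27 in 786-O (ratio 0.460, 0.328 to 0.637) and 0.144 against 0.230 in A498 (ratio 0.625, 0.292 to 1.28). The length of 3q was taken up to the last peak of any list, at 197900542.

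**Figure D1:**
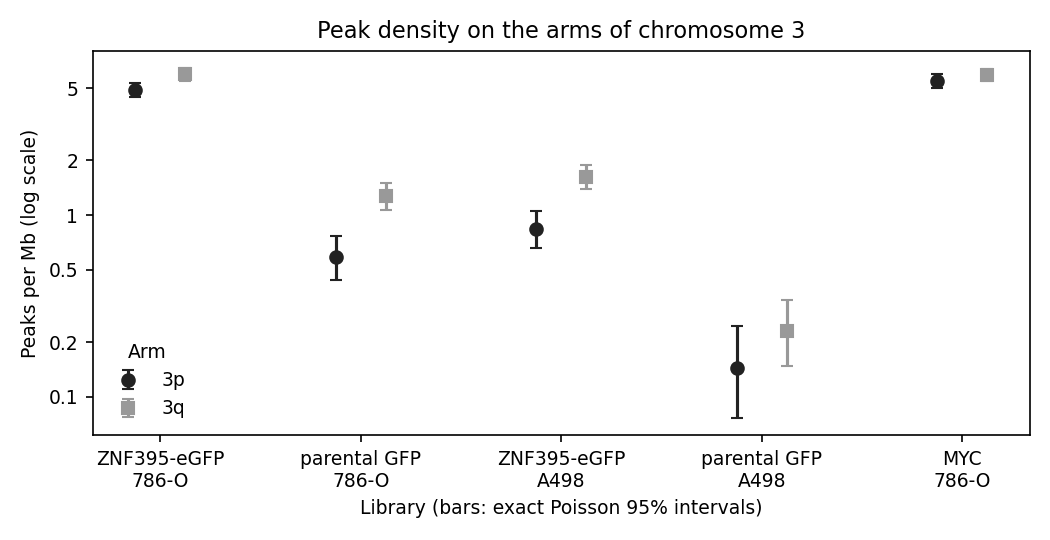
Peaks per Mb (log axis) on 3p (circles) and 3q (squares) in each of the 5 libraries, with exact Poisson 95% intervals. The intervals of both arms are apart in tagged 786-O, parental 786-O and tagged A498, and overlap in parental A498 and MYC.

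Against the other chromosomes, 3p was among the regions with few peaks in every list. Among 24 units (chromosomes 1, 2, 4 to 22 and X, with 3p and 3q apart) it ranked 20 by density of tagged 786-O peaks, 22 for tagged A498, 19 for MYC, 22 for parental 786-O and 23 for parental A498. It held 2.22% (2.02 to 2.44) of the tagged 786-O peaks of chromosomes 1 to 22 and X, 2.45% (2.24 to 2.67) of the MYC peaks and 0.996% (0.785 to 1.24) of the tagged A498 peaks. Its share of the A498 list therefore lay below its share of either long 786-O list. The parental lists had 1.61% (1.21 to 2.10) of their peaks on 3p in 786-O and 0.923% (0.493 to 1.57) in A498. For the density ranks, the other chromosomes were measured from the first to the last peak of any list, centromere included. The arms of chromosome 3 were measured from fixed bounds without the centromere, with 3p starting at position 0, so the lengths behind the ranks are not alike.

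In strength, the ZNF395-eGFP peaks of 3p resembled those elsewhere. A peak's score is the authors' value, read as a −log10 of a p or q, and was compared only within a list. The median score on 3p was 13.6 in tagged 786-O (13.1 in the whole list), 6.46 in tagged A498 (5.71), 14.6 for MYC (16.2) and 6.02 in parental 786-O (6.56). Of the 3p peaks, 9.71% (7.11 to 12.9) were in the upper 10% of the tagged 786-O list, 13.2% (6.49 to 22.9) in that of tagged A498 and 9.11% (6.72 to 12.0) in that of MYC, and all 3 intervals include 10%. Median widths on 3p were 417 bp in tagged 786-O, 243 bp in tagged A498 and 422.5 bp for MYC, against 393, 245 and 425 bp in the whole lists. The A498 peaks of 3p were few, but those called were not lower in their list than A498 peaks in general.

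Along the arm both tagged lists and MYC were highest in the same bin of 5 Mb. Of the 443 tagged 786-O peaks, 77 lay from 45 to 50 Mb and 65 from 50 to 55 Mb, and a lower rise of 49 peaks stood from 10 to 15 Mb. MYC peaks had the same crests, with 101, 78 and 51 peaks in these bins. Tagged A498 peaks had 18, 7 and 7. From 80 Mb to the bound near the centromere tagged 786-O had 5 peaks, MYC 5 and tagged A498 none. Over the 90 whole bins of 1 Mb, Spearman's rho of peak numbers was 0.93 between tagged 786-O and MYC, 0.73 between both tagged lists, 0.45 between tagged and parental 786-O and 0.25 between tagged and parental A498. These correlations are descriptions: all lists share the same genome and its mappable sequence, and tagged 786-O and MYC are the longest lists.

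**Figure D2:**
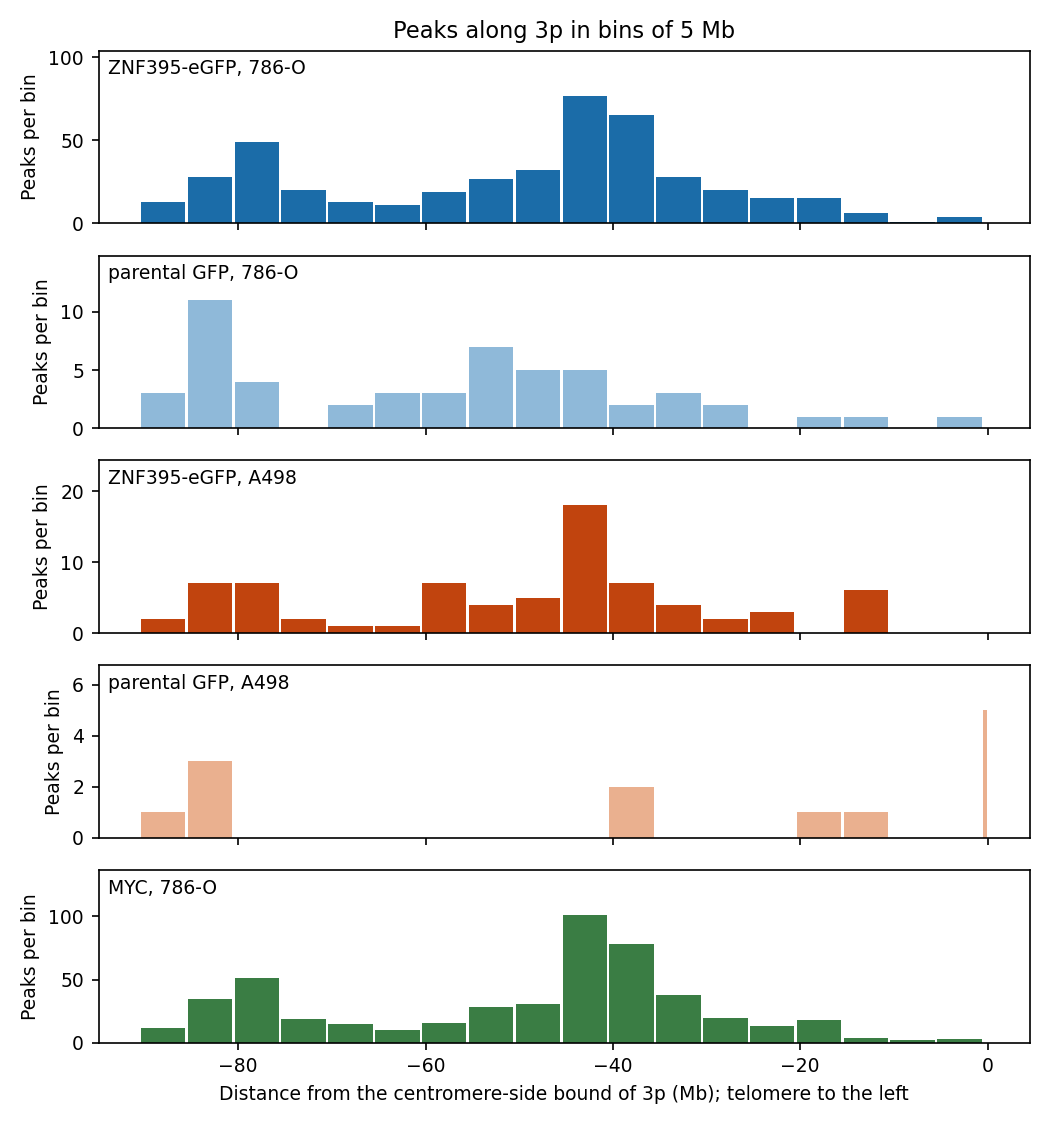
Number of peaks of each library per bin of 5 Mb along 3p, by distance from the bound of 90.5 Mb near the centromere (the last bin, beside 0, is 0.5 Mb wide). Tagged 786-O, tagged A498 and MYC are highest in the bin from 45 to 50 Mb, with 77, 18 and 101 peaks, and 5 of the 13 parental A498 peaks lie in the last bin.

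The GFP antibody gave few peaks on 3p in cells without the tag. In 786-O, 35 of the 443 tagged peaks (7.90%, 5.56 to 10.8) shared at least 1 bp with a parental peak, against 83 of 622 (13.3%) on 3q and 12.2% of the whole tagged list. The difference between arms was −5.44 percentage points (−9.06 to −1.66), and it was −0.22 when a 50% reciprocal overlap was required. In A498, 3 of 76 tagged peaks (3.95%, 0.822 to 11.1) lay at a parental peak, against 5 of 170 on 3q and 6.93% of the whole list. In the other direction 38 of the 53 parental 786-O peaks (71.7%) were called again in tagged 786-O cells (76.2% of the whole list), and 3 of the 13 parental A498 peaks in tagged A498 cells (35.1% of the whole list). Removing tagged peaks at parental sites of the same line left 408 tagged-only peaks in 786-O and 73 in A498.

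The 5 highest parental 786-O peaks of 3p were all called again in tagged 786-O cells. The highest lay at 38125905 to 38126055, with a score of 31.5 in parental and 33.9 in tagged 786-O and no peak in the other lists. At 39194877 to 39195388 the score was 24.6 in parental 786-O, 42.5 in tagged 786-O, 5.77 in tagged A498 and 15.1 for MYC, so this site was called in all but parental A498. The other 3 of the 5 highest, at 73159933 to 73160141, 44803119 to 44803346 and 57582292 to 57583165, had parental scores of 22.1, 20.5 and 16.9, and each had a tagged 786-O peak. Scores of different lists depend on the depth and control of each library and are set side by side only as calls.

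Parental A498 peaks had another layout. All of the 5 highest lay close to the bound near the centromere, from 90443589 to 90494858, with scores of 22.05 to 57.04 and widths of 112 to 135 bp. No other list had a peak in that last bin. Of the remaining 8, the highest was at 75718287 to 75718528 (score 19.6), a site also called in parental 786-O (11.9), tagged 786-O (19.5) and tagged A498 (13.5) but not with MYC. It was 1 of 14 places on 3p called in at least 4 of the 5 lists.

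Of the 10 highest tagged-only peaks of 3p in 786-O, 7 had a tagged A498 peak, and the other 3, the highest of all among them, lie in 1 stretch described further on. Among the pairs of tagged-only peaks that overlapped between the lines, the leading one by the sum of ranks was at 47323852 to 47324877 in 786-O, with a score of 148.5 (rank 98 of 20034) in tagged 786-O, 56.6 (rank 70 of 7718) in tagged A498 and 155.8 (rank 396 of 20199) for MYC. It was followed by 16306066 to 16306746, with scores of 163.5 in 786-O, 43.5 in A498 and 24.6 for MYC. The site at 50329183 to 50330143 scored 136.2, 48.7 and 110.8 in the same order. At 14988650 to 14990261 the scores were 126.6, 32.1 and 27.7, and at 63897338 to 63898561 they were 146.4, 24.1 and 64.5. All of these sites had a peak in both tagged lists and in MYC, and none had one in a parental list. The tagged 786-O peak at 10067758 to 10068364 (score 151.7, rank 92) was not tagged-only, as it met a parental 786-O peak (score 5.35). The tagged-only A498 peak there scored 17.3.

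The next 5 by rank sum were at 48935914, 5028276, 12598235, 47516754 and 51572527, and each of them also had a MYC peak. Their scores ran from 72.5 to 121.8 in tagged 786-O and from 9.43 to 28.5 in tagged A498. The highest pair in that order without a MYC peak was at 46530203 to 46530781, with 131.6 in 786-O and 7.17 in A498. In all, 45 tagged-only 786-O peaks of 3p overlapped 45 tagged-only A498 peaks. At these sites median widths were 800 bp in 786-O and 234 bp in A498.

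Sites called in 786-O were found again in A498 less often on 3p than on 3q. Only 45 of 408 tagged-only sites of 3p in 786-O (11.0%, 8.16 to 14.5) were also tagged-only sites of A498, against 90 of 539 (16.7%) on 3q and 16.1% of the whole list. The difference from 3q was −5.67 points (−9.99 to −1.18) and that from the other chromosomes −5.16 points (−7.91 to −1.71). It was present among strong sites: when the whole tagged-only 786-O list was cut by score into 3 equal parts, in the upper part, 41 of 144 peaks of 3p (28.5%, 21.27 to 36.6) were shared, against 72 of 180 (40.0%) on 3q and 39.0% on the other chromosomes. In the middle part 3 of 142 were shared on 3p (2.11%) and 15 of 149 on 3q (10.1%). In the lower part 1 of 122 and 3 of 210 were shared, a difference of −0.61 points (−3.38 to 3.19). The number of A498 peaks limits all of these shares. On 3p there were 73 tagged-only A498 peaks for 408 in 786-O, and on 3q 165 for 539. The lower share on 3p thus cannot be told apart from the imbalance in number described below.

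In the other direction, A498 peaks of 3p were mostly found in 786-O. A tagged-only 786-O partner was present at 45 of 73 tagged-only A498 sites (61.6%, 49.5 to 72.8), against 41.3% of the whole list. A further 16 met a tagged 786-O peak with parental 786-O background beneath it, so 61 of 73 (83.6%, 73.0 to 91.2) had some tagged 786-O peak, against 54.4% of the whole list. These shares did not set 3p apart from 3q, where 94 of 165 (57.0%) and 133 of 165 (80.6%) did so: the differences were 4.67 points (−8.93 to 17.5) and 2.96 points (−8.48 to 12.5). Only 12 A498 peaks of 3p had no tagged 786-O peak. The 5 highest of them, at 32726609, 66068850, 75704774, 75800557 and 48507608, had scores of 6.46 to 7.90 and ranks from 2295 to 3199 of 7718, and those at 32726609, 75800557 and 48507608 coincided with MYC.

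The imbalance in number between the lines was larger on 3p than on 3q. There were 5.59 tagged-only 786-O peaks for each tagged-only A498 peak on 3p (4.35 to 7.27), 3.27 on 3q (2.74 to 3.91) and 2.40 on the other chromosomes (2.34 to 2.47). The ratio on 3p was 1.71 times that on 3q (1.25 to 2.35) and 2.32 times that elsewhere (1.80 to 3.03). Among the 24 units 3p ranked 3, after chromosome 18 (10.6, 7.05 to 16.7) and chromosome 14 (7.30, 5.67 to 9.54) and before chromosome 6 (5.14, 4.38 to 6.06). Its interval overlaps those of all these chromosomes. It also overlaps those of chromosome 11 (4.26, 3.67 to 4.97) and chromosome 22 (3.68, 3.01 to 4.52). The imbalance was similar along the arm, when 3p was cut into 3 equal lengths: 6.67 (4.04 to 11.6) in the distal, 5.11 (3.70 to 7.20) in the middle and 5.80 (2.94 to 12.7) in the centromeric length. Parental GFP peaks, which need no tag, numbered 4.08 in 786-O for each in A498 on 3p (2.19 to 8.15) and 5.54 on 3q (3.57 to 8.95). The ratio on 3p was 0.736 times that on 3q (0.331 to 1.70), and 1.80 times that of the other chromosomes (0.964 to 3.61), where it was 2.26. Both intervals include 1 and are wide, with 13 parental A498 peaks on 3p. Differences in DNA copy number, in depth and in efficiency of the precipitation between the lines cannot be told apart in these lists.

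**Figure D3:**
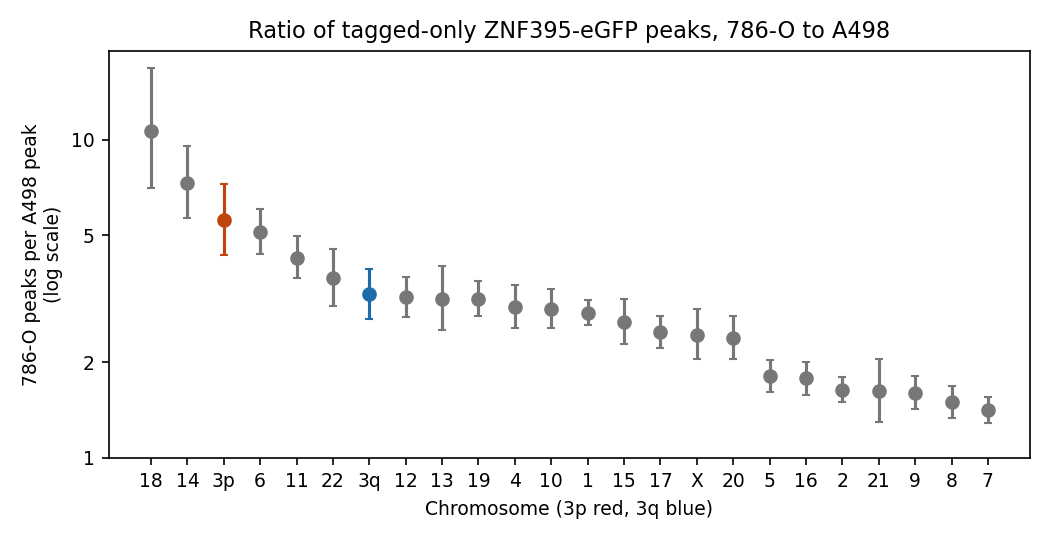
Number of tagged-only 786-O peaks for each tagged-only A498 peak (log axis) on each chromosome, with 3p (red) and 3q (blue) apart and exact 95% intervals. With 5.59, 3p has rank 3 of 24, and 3q with 3.27 has rank 7.

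Most tagged-only ZNF395-eGFP sites of 3p in 786-O lay at a MYC peak. MYC was called at 266 of the 408 (65.2%, 60.4 to 69.8), against 296 of 539 (54.9%) on 3q and 58.8% of the whole list. The difference from 3q was 10.3 points (3.98 to 16.4) and that from the other chromosomes 6.26 points (1.46 to 10.8). The contrast with 3q was not stable to the choice of peaks: it was 3.28 points under a 50% reciprocal overlap, and −0.74 points when the upper 50% of every list by score was used, with 52.3% on 3p and 53.1% on 3q. Without parental subtraction the contrast was 7.91 points. Within the 3 parts of the tagged-only list by score the differences were 5.69 (−3.03 to 14.0), 9.15 (−2.02 to 20.0) and 8.47 points (−2.21 to 19.2), and all 3 intervals include 0. Along the arm the share was 73.0% (66.8 to 78.7) in the middle length, 57.5% (48.1 to 66.5) in the distal and 50.0% (36.6 to 63.4) in the centromeric one. The middle length, from 30.2 to 60.3 Mb, was also the fullest, with 230 of the 408 peaks.

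Tagged-only A498 peaks of 3p lay at 786-O MYC peaks in 55 of 73 cases (75.3%, 63.9 to 84.7), against 48.0% of the whole list. The share on 3q was also high (113 of 165, 68.5%), and the difference between the arms was 6.86 points (−5.96 to 18.1). Seen from MYC, 267 of its 494 peaks on 3p (54.0%, 49.5 to 58.5) met a tagged-only peak of 786-O, against 302 of 617 (48.9%) on 3q and 51.8% of the whole list, a difference of 5.10 points (−0.81 to 11.0). With tagged 786-O peaks at parental sites kept, 300 of 494 MYC peaks on 3p (60.7%) and 375 of 617 on 3q (60.8%) met one. The whole MYC list had 60.9%, and the difference between arms was −0.05 points (−5.83 to 5.69). GFP peaks of parental 786-O cells also overlapped MYC peaks, in 36 of 53 cases (67.9%, 53.7 to 80.1), against 60.5% of that whole list. In parental A498 this was so for 3 of 13 peaks (23.1%, 5.04 to 53.8), against 15.9% of the whole list. Overlap with MYC on 3p was thus not limited to peaks that need the tag. The parental 786-O and MYC libraries name the same control library.

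**Figure D4:**
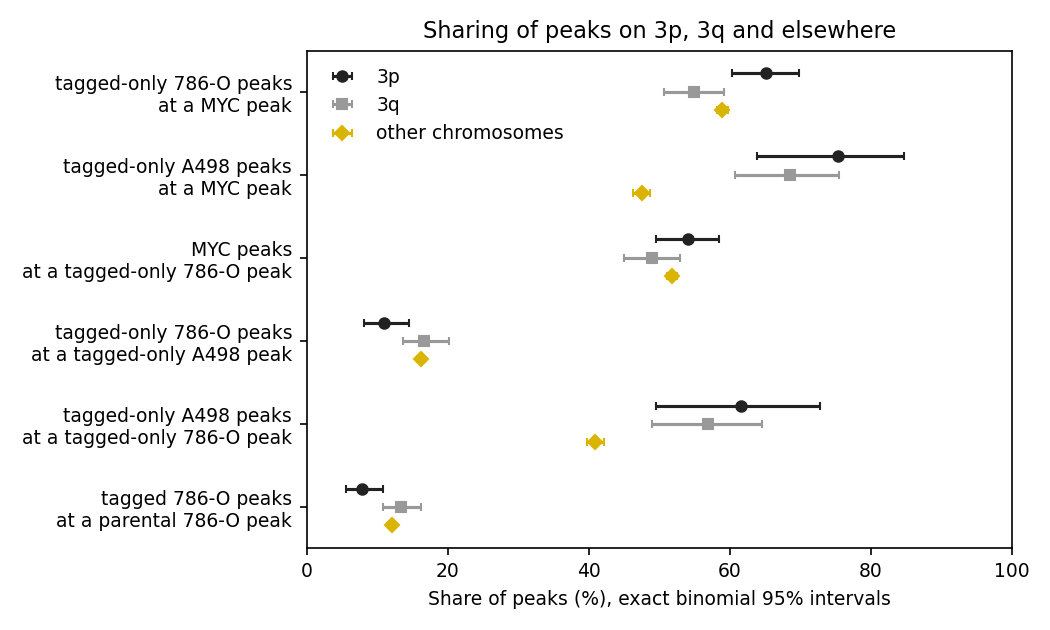
Shares of peaks on 3p (circles), 3q (squares) and the other chromosomes (diamonds) that overlap a peak of another list, with exact binomial 95% intervals. On 3p, 65.2% of the tagged-only 786-O peaks lie at MYC peaks and 11.0% at tagged-only A498 peaks, against 54.9% and 16.7% on 3q.

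Both partners together divided the 408 tagged-only 786-O peaks of 3p into 4 classes of different strength. The 39 with MYC and A498 (9.56%) had medians of 41.6 in score and 818 bp in width. The 227 with MYC alone (55.6%, 50.7 to 60.5) had medians of 14.7 and 472 bp, and on 3q that class was smaller, with 41.2% (37.0 to 45.5). Class shares were not rerun under other settings, and the MYC contrast they contain was not stable, as given above. The 6 with A498 alone had a median score of 38.2. The 136 with neither (33.3%, 28.8 to 38.1) had medians of 7.81 and 242 bp and made up 42.1% on 3q. On 3q the median scores in the same class order were 31.7, 13.3, 31.9 and 7.08. The median score was thus higher in both classes shared with A498 on either arm. The highest tagged 786-O peak of 3p, however, is in the class with neither. That peak lies in a crowded stretch described below, where binding by the tagged protein was not tested.

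By rank sum, the leading sites of 3p tagged-only in 786-O and bound by MYC included those at 47323852, 50329183 and 63897338 given above. The remaining 2 of the 5 were at 33481282 to 33482074, with scores of 68.5 in 786-O, 3.18 in A498 and 82.3 for MYC, and at 47516754 to 47517892, with 91.4, 9.43 and 60.6. The single highest MYC peak of the arm was not among its highest ZNF395-eGFP peaks. It lay at 39447908 to 39448790 and was named after its value was seen. Its scores were 315.3 for MYC (rank 21), 22.3 in tagged 786-O (rank 6193) and 2.29 in parental 786-O. The site at 47323852, by contrast, was high in both lists, with rank 98 in tagged 786-O and rank 396 for MYC. MYC peaks without any tagged 786-O peak were led by 57935440 to 57936023 (MYC score 128.8), 11746448 to 11747009 (94.3), 58147459 to 58147918 (91.9), 5036493 to 5037108 (72.6) and 58057253 to 58057737 (53.5). The peaks at 57935440, 58147459 and 58057253 were neighbours within less than 1 Mb.

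A stretch of 8.69 kb held the highest tagged 786-O peak of 3p and 8 more. Whether these 9 peaks mark binding of the tagged protein was not tested, and their place relative to exons was not examined here. Its 9 tagged 786-O peaks lay between 52436197 and 52444886. In order along the chromosome they started at 52436197, 52438356, 52439007, 52439671, 52440725, 52441875, 52442396, 52443575 and 52444542. Their scores in that order were 232.4, 71.9, 109.8, 84.8, 107.3, 63.1, 61.8, 16.5 and 16.4, so the 7 nearest the telomere were all above 60 and the other 2 far lower. The first held rank 19 of 20034 in its list. No tagged A498 peak and no parental 786-O peak lay in the stretch. Parental A498, without the tag, had peaks at 52436267 to 52436388 (score 4.04) and 52441253 to 52441459 (score 5.32), ranks 13 and 11 of its 13 on the arm. MYC had 1 peak there, at 52443788 to 52444888 with a score of 32.7, which overlapped only the last 2 tagged peaks. Of the 5 highest tagged-only 786-O peaks of 3p without a MYC peak, 4 were in this stretch, as were 4 of the 5 highest without a tagged A498 peak. The exceptions were 46530203 to 46530781 in the first case and 48229000 to 48230236 (score 75.1, MYC score 26.9) in the second.

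The other crowded stretch behaved differently, being occupied in all 5 lists. Tagged 786-O had 8 peaks from 5019271 to 5028951, parental 786-O 7, tagged A498 6, MYC 4 and parental A498 3. The tagged 786-O peaks at 5019838 to 5021589 (score 77.9) and 5028276 to 5028951 (score 121.8) were the highest, and the other 6 scored from 2.63 to 15.0. Parental scores there ran from 3.77 to 9.97 in 786-O and from 6.42 to 10.8 in A498. Of the 8 tagged 786-O peaks, 6 overlapped a parental 786-O peak. The peak at 5028276, which had no parental peak in either line, was matched in tagged A498 (score 13.4) and MYC (score 17.6). This stretch holds both places of 3p that were called in all 5 lists. The bin from 5 to 6 Mb was the fullest of 3p for parental 786-O, with 9 of its 53 peaks.

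**Figure D5:**
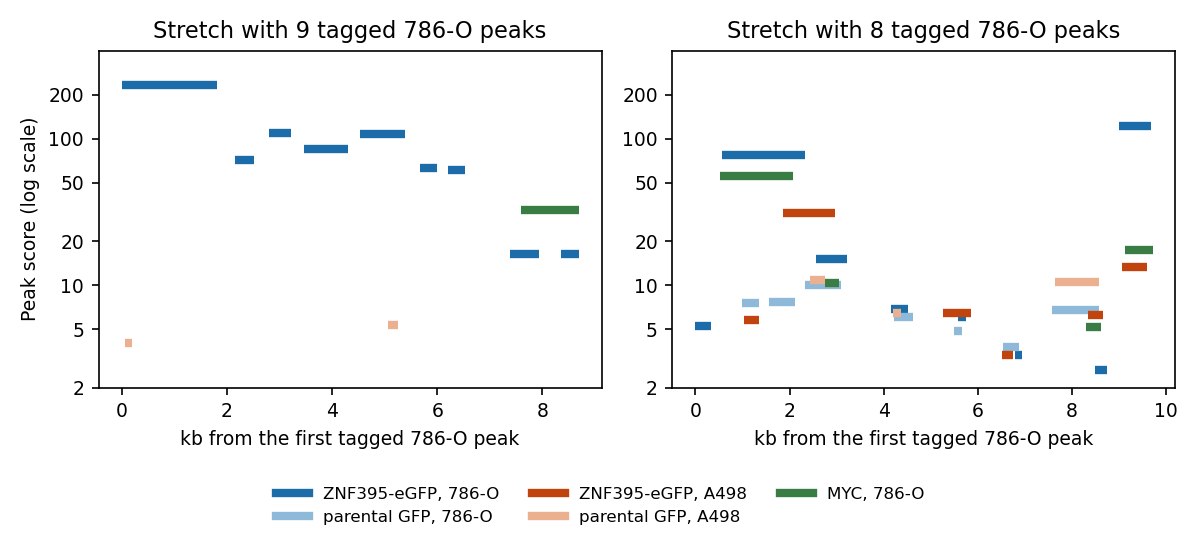
Peaks of the 5 libraries in the stretches of 3p with 9 (left) and 8 (right) tagged 786-O peaks, drawn from start to end by distance in kb from the first tagged peak, at the height of their score (log axis; heights are comparable only within a library). On the left 7 tagged 786-O peaks stand above 60 with no peak of tagged A498 or parental 786-O; on the right all 5 libraries have peaks.

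Merging overlapping peaks of all lists gave 647 distinct places on 3p. Most were called only in 786-O: 215 with tagged 786-O and MYC, 185 with MYC only and 134 with tagged 786-O only. Both of the longest lists are from 786-O, A498 has no MYC list, and the same patterns led on 3q. A further 39 were called in both tagged lists and MYC, and 11 in these and parental 786-O. In number of lists, 341 places were in 1 list, 233 in 2, 59 in 3, 12 in 4 and 2 in all 5. On 3q, with 932 places, tagged 786-O with MYC made up 22.5%, against 33.2% on 3p, and tagged A498 alone made up 3.43%, against 1.24%. MYC alone made up 24.9% on 3q and 28.6% on 3p, and tagged 786-O alone 24.4% and 20.7%. No alternative setting was run for these shares of places. On 3p, 31.8% (27.5 to 36.4) of the tagged 786-O peaks and 45.3% (40.9 to 49.9) of the MYC peaks lay within 10 kb of another peak of their list. On 3q these shares were 36.3% (32.5 to 40.3) and 35.8% (32.0 to 39.7). MYC peaks were thus more crowded on 3p than on 3q, and tagged 786-O peaks were not. Shares over the whole lists are not given.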

How the data were processed

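Per the submitters' processing notes, BWA, MACS2 and the hg19 build were used; no version or setting is stated there. Peak names in the deposited files state that each library was called on its own against 1 control library. The deposited score is read as −log10 of a p or q, since every list starts just above 2; which of both is not stated. No list holds read counts, so depth is unknown. The 4 input samples have no list here. Overlap means at least 1 bp, and tagged-only means no overlapping parental peak of the same line. Densities carry exact Poisson, shares exact (Clopper-Pearson) binomial, differences of shares Newcombe, and ratios exact conditional intervals. Members, lists and rules were chosen with earlier results of these data known. Peaks named on 3p were drawn from the 10 top-scoring tagged-only peaks per line and the 10 leading pairs by rank sum over the lines. They were also drawn from the 5 leading peaks of each class with or without MYC, the other line or a parental list. Not every peak of these sets is named. The 2 crowded stretches were picked by their number of tagged 786-O peaks after the data were seen. Planned gene, promoter and motif results would need a reference of the hg19 build, so they were left out. Intervals came from scipy 1.17.1 and tables from pandas 2.3.3 under Python 3.11.15. Overlap rules were tested on simulated data against bedtools 2.31.1.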

Additional observations from a re-analysis of the deposited data

How the results depend on the processing

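Each list is 1 library, depth is unknown, and intervals cover counting error only. No paired analysis was possible because each group has 1 library. Of 154 planned values, 124 stayed within the interval of the reported one, 29 left it and 1, whose reported interval excludes 0, turned its direction. Among the values that stayed or left, 7 differences or ratios whose reported intervals include 0 or 1 also changed side. They were −1.04, −0.48 and −0.31 points for tagged A498 peaks at parental peaks (reported 1.01; reciprocal, equal lists, without the widest 1%), −1.34 for tagged-only A498 peaks at MYC (6.86; reciprocal), −3.83 for tagged-only A498 sites found in 786-O (4.67; upper 50%), and the MYC value of −1.37 and the density ratio of 3.46 below. The density ratios of 3p to 3q and the larger imbalance of the lines on 3p kept their direction under every alternative run, except that the parental A498 density ratio was 3.46 in the upper 50% of scores. Shares on 3p moved most. Tagged 786-O peaks lay at parental peaks in 2.03% with a 50% reciprocal overlap, 5.19% with midpoints within 200 bp and 14.3% with lists of equal length, and the difference from 3q was −0.22 points in the first and −16.8 in the last of these. Tagged-only 786-O peaks lay at MYC peaks in 43.1% (reciprocal), 48.3% (midpoints), 52.3% (upper 50% of every list) and 58.1% (equal lists), with differences from 3q of 3.28 points (reciprocal) and −0.74 points (upper 50%), the turn named first. With the upper 50% of tagged-only peaks against the full MYC list, chosen after seeing the data, the share was 79.5% and the difference 3.45 points. For tagged-only A498 peaks the MYC share was 17.3%, 48.6%, 63.8% and 41.1% in the same order. MYC peaks lay at tagged-only 786-O peaks in 37.9% (reciprocal, a difference from 3q of −1.37 points) and 40.9% (midpoints). The share of tagged-only 786-O sites found in A498 was 3.69% (reciprocal), 14.5% (upper 50%) and 25% (equal lists, a difference of −10.8 points). The reverse share was 21.33% (reciprocal), 84.2% without parental subtraction and 77.6% with either parental list removed. On 3q the number ratio of the lines was 2.71 (upper 50%) and 3.92 (either parental list removed). Of the tagged A498 peaks, 1.27% lay on 3p in the upper 50% of scores. Without the 5 Mb next to the centromere 0% of parental A498 peaks on 3p were in the upper 10% of their list. A 50% reciprocal rule can drop narrow peaks inside wide ones by its own construction; for the other settings the cause was not tested. Leaving out the 2 crowded stretches, also chosen after seeing the data, moved none of the 11 values rerun out of its interval. Shares of tagged peaks at parental peaks and density ratios were not rerun without these stretches. Promoter windows were not run for lack of an hg19 annotation.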
